A study of Mus musculus with 3 samples.

Results

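Triglyceride-rich lipoproteins bring fat to brown adipose tissue (BAT), and 10 genes that act between the vessel lumen and the adipocyte's acyl-CoA pool were followed here, out of 25154 genes listed in the deposited tables. They were chosen by name for their textbook roles, with earlier results of these data known, and comprise the lipase Lpl, its anchor Gpihbp1, its regulator Angptl8, the fatty acid uptake genes Cd36, Slc27a1 and Slc27a2, the fatty acid binding proteins Fabp4 and Fabp5, and the acyl-CoA synthetases Acsl1 and Acsl5. All 10 were listed in all 3 libraries. Lipoprotein lipase is made mainly by parenchymal cells such as adipocytes and is carried by GPIHBP1 across the capillary wall, where it hydrolyses the triglycerides of chylomicrons and VLDL. The fatty acids that are set free cross the endothelium, are taken up by the adipocyte and are activated to acyl-CoA, which is burnt or stored. BAT is known for a high rate of this clearance, which responds to feeding, cold and sympathetic input.

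Interscapular BAT was digested and its floating part, lipid-filled brown adipocytes (BAs) with attached pieces of vessel, was taken for isolation of nuclei, with 1 library for each of 3 conditions. All mice were adult and wild type, of a strain labelled C57Bl6. The untreated library pooled 20 mice that were 8 weeks old, the denervated library pooled 20 mice at day 3 after the left intercostal nerves to the BAT, in 5 branches, had been cut, and the sham-operated library has a label but no time or number of mice. A drawing of the denervation experiment in the study also lists tamoxifen, which the labels do not name. The headers of the untreated and denervated counts carry the run names nC and nKO, which the labels do not explain. Counts of unique molecular identifiers (UMIs, tags that let amplified copies of a molecule count as 1) were summed over all nuclei of a class and given per 1000000 UMIs of that class (CPM). With 1 library per condition there is no replicate spread and no test, so each interval is an exact 95% interval for counting error alone.

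After filtering, the untreated, sham and denervated libraries held 10928, 12299 and 9642 nuclei, with a median of 971, 750 and 687 UMIs. Between 251 and 278 barcodes were shared by any pair of libraries. Nuclei were clustered without the 10 genes and named from marker lists, and a difference from the study's cell types may come from these rebuilt names. Endothelial-like (EC-like) nuclei numbered 5319, 5647 and 2587, BA-like nuclei 4590, 3414 and 4984, white adipocyte-like (WA-like) nuclei 140, 936 and 889, pericyte-like (PC-like) nuclei 660, 1814 and 804, and immune-like nuclei 69, 77 and 259, in that order of libraries. The sham library stood apart from the untreated one: among BA-like nuclei, 18.1% of 7847 genes were at least 1.5-fold higher and 17.5% at least 1.5-fold lower, against 6.73% and 4.75% of 7625 genes for denervated over untreated. Summed levels of 8 stress genes in BA-like nuclei were 2012, 4301 and 2336 CPM, and mitochondrial UMIs took 3.17%, 6.32% and 1.85%. Classes also differed in how much RNA of other classes they held. The 13 endothelial markers with enough UMIs stood in BA-like nuclei at 2.34%, 2.84% and 2.69% of their summed EC-like level, whereas the 10 adipocyte markers stood in EC-like nuclei at 10.7%, 7.76% and 35.3% of their BA-like level. The denervated EC-like class differed in makeup: 1796 of its 2587 nuclei lay in a sub-cluster led by Slc16a10, 4933406I18Rik and Kng2, with Irs1 and the brown adipocyte marker Ppara also among its leading genes. In that sub-cluster the adipocyte markers stood at 43.7% of their BA-like level and the endothelial markers summed to 10663 CPM, against 15.7% and 13334 CPM in the other 791 denervated EC-like nuclei, so the denervated EC-like values of most of the 10 genes are also given without it. Those 791 nuclei differed in makeup too. Of them, 597 lay in a sub-cluster led by the haemoglobin genes Hba-a2, Hbb-bs and Hba-a1 and the pericyte marker Rgs5, 128 were venous-like and 66 arterial-like. The 5319 untreated EC-like nuclei held 102 venous-like and 274 arterial-like ones. The sham EC-like class was mixed as well. Of its 5647 nuclei, 1004 lay in a sub-cluster led by mt-Nd4l, Gabarap and the white adipocyte marker Cyp2e1. The haemoglobin genes Hbb-bs and Hba-a1 were also among its leading genes.

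The 10 genes divided between the vessel and the adipocyte. In the untreated library Gpihbp1, Cd36, Fabp4 and Fabp5 were at least 2-fold higher in EC-like than in BA-like nuclei, as were 21.8% of 8498 genes with at least 20 CPM in either class. Angptl8, Slc27a1, Slc27a2, Acsl1 and Acsl5 were at least 2-fold lower in EC-like nuclei, as were 26.4% of those genes. Lpl was the 1 gene on neither side. The median log2 ratio was -1.37 over the 10 genes and -0.20 over all genes compared. The former falls in the gap between Lpl and the adipocyte-side genes and is near no single gene. The sham library gave the same division (background 21.5% higher and 26.7% lower), and the denervated library gave it with 1 exception, Fabp4, which was 1.89-fold higher (background 19.2% and 16.6%). Without the sub-cluster rich in adipocyte markers, the denervated library gave 4 higher and 5 lower as well, with Fabp4 at 1.28 on the log2 scale. The signs of all 10 ratios held in each library under every alternative that gave a value.

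**Figure D1:**
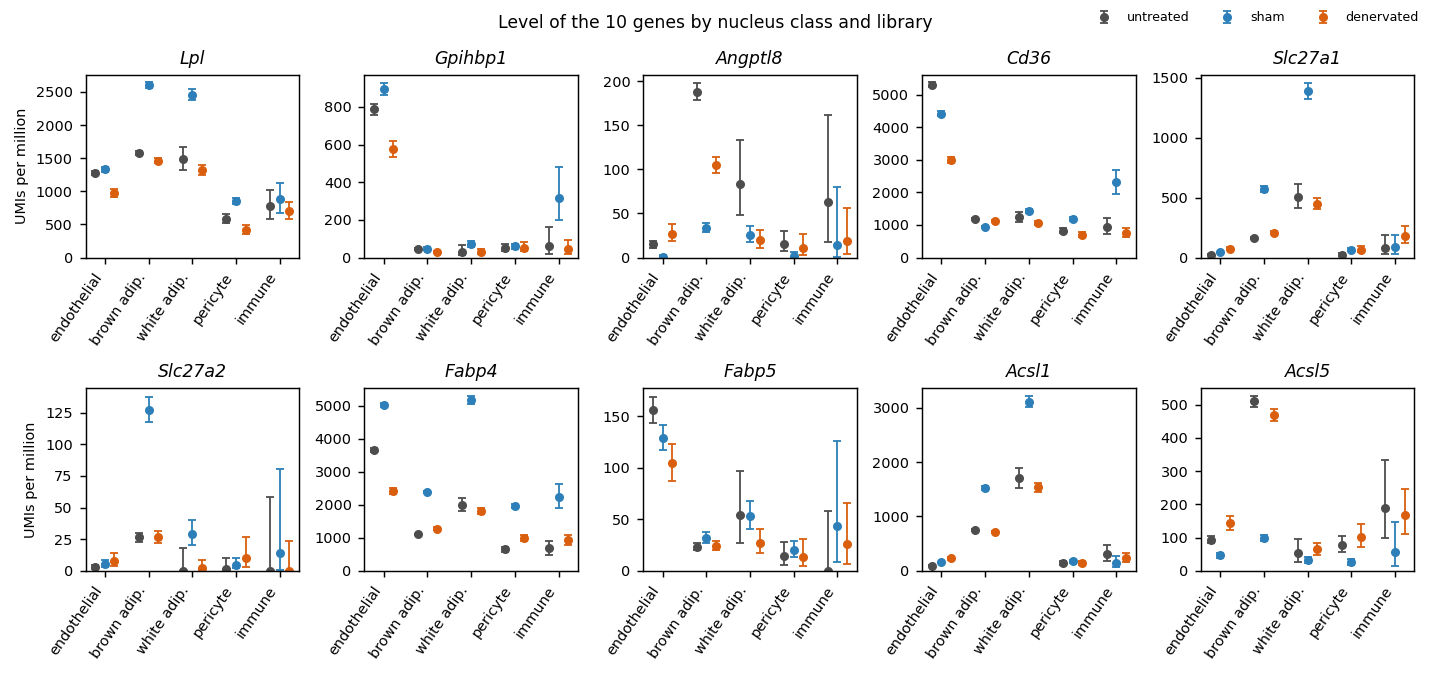
Level of each of the 10 genes (vertical axis, CPM, from 0, with its own scale per gene) in 5 nucleus classes and 3 libraries; points are sums over the nuclei of a class and bars are exact 95% Poisson intervals for counting error. Gpihbp1, Cd36 and Fabp5 peak in endothelial-like nuclei, Angptl8, Slc27a2 and Acsl5 in brown adipocyte-like nuclei, and Slc27a1 and Acsl1 in white adipocyte-like nuclei.

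**Figure D2:**
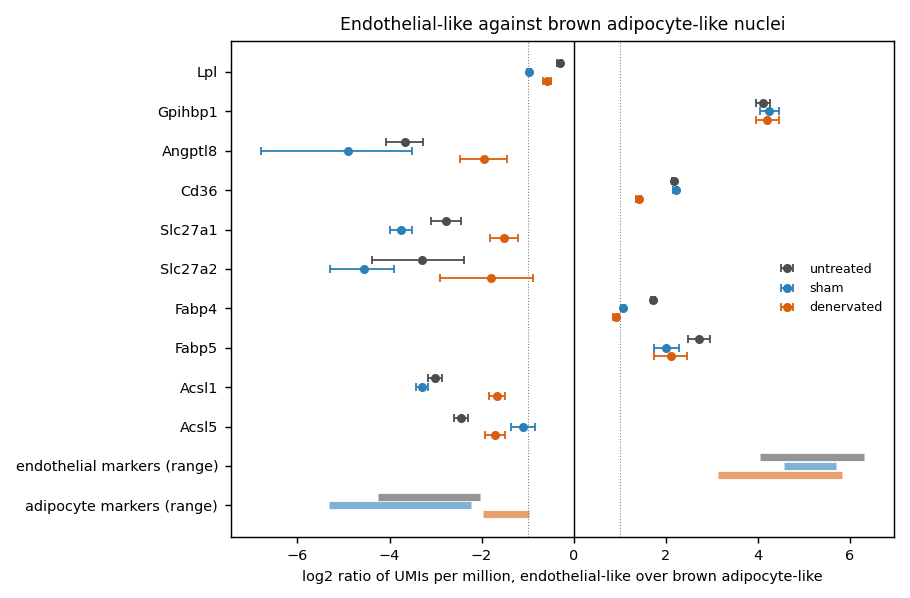
Log2 ratio of CPM, endothelial-like over brown adipocyte-like nuclei (horizontal axis), for the 10 genes in 3 libraries, with exact 95% intervals for counting error; thick bars in the last 2 lines give the range of single endothelial and adipocyte markers, and dotted lines mark a 2-fold difference. Gpihbp1 lies near 4 in all 3 libraries, in or just under the range of the endothelial markers, Lpl lies between -0.97 and -0.30, and most adipocyte-side genes lie in the range of the adipocyte markers.

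Lpl (chr8:68880491-68907448, plus strand, GRCm38) encodes the lipase itself. Its level in BA-like nuclei was 1576 CPM in the untreated, 2602 in the sham and 1462 in the denervated library. In EC-like nuclei it was 1277, 1333 and 973 CPM, and in WA-like nuclei 1485, 2459 and 1320 CPM. Of these classes, both kinds of adipocyte-like nuclei were thus highest in each library, with EC-like nuclei below them and PC-like nuclei, at 587, 854 and 416 CPM, lower again. The log2 ratio of EC-like over BA-like nuclei was -0.30 (95% interval -0.35 to -0.26) in the untreated, -0.97 (-1.01 to -0.92) in the sham and -0.59 (-0.67 to -0.50) in the denervated library. EC-like nuclei held 81.0% of the untreated BA-like level of Lpl, while the 10 adipocyte markers stood there at 5.22% to 24.4% of theirs. The 2966 untreated EC-like nuclei with no UMI of any adipocyte marker held 1194 CPM of Lpl, and in the sham and denervated libraries such nuclei held 1330 and 826 CPM. Untreated EC-like nuclei had a median of 670 UMIs and 926 CPM of these markers, so a nucleus can lack them by sampling alone. The source of the Lpl in these nuclei was thus not tested. Barcodes with fewer than 200 detected genes, a stand-in for free RNA, held 801 CPM in the untreated library, close to the 776 CPM (574 to 1026) of immune-like nuclei. After subtraction of such a free RNA profile, EC-like nuclei were left with 1395 CPM in the untreated and 1115 CPM in the sham library; no denervated value could be had, since the subtraction would have taken more than all UMIs. Without the sub-cluster rich in adipocyte markers, denervated EC-like nuclei held 982 CPM.

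Gpihbp1 (chr15:75596628-75599481, plus strand) encodes the endothelial protein that binds lipoprotein lipase and takes it to the lumen. EC-like nuclei held 787 CPM in the untreated, 895 in the sham and 575 in the denervated library. BA-like nuclei held 45.6, 46.9 and 31.2 CPM and PC-like nuclei 51.0, 58.6 and 52.6 CPM. The gene was 17.3-fold higher in EC-like than in BA-like nuclei in the untreated library (log2 ratio 4.11, 3.96 to 4.27), and the ratios of the sham and denervated libraries were 4.25 (4.06 to 4.46) and 4.20 (3.95 to 4.46). Its level in untreated BA-like nuclei was 5.79% of that in EC-like nuclei, inside the range of 1.26% to 6.08% shown by the endothelial markers. In the sham library it was 5.24%, above all 13 endothelial markers (1.93% to 4.24%), and in the denervated library 5.43%, above 11 of 13. After each nucleus was thinned to 400 UMIs, 25.7%, 27.0% and 19.4% of EC-like nuclei had a UMI of Gpihbp1, against 1.84%, 2.03% and 1.28% of BA-like nuclei, which should lack it. Without thinning the untreated shares were 35.5% and 7.71%, at a median of 670 and 1818 UMIs per nucleus. Subtraction of the free RNA profile left BA-like nuclei with 16.9 CPM in the untreated, 0 in the sham and 9.16 in the denervated library. Without the sub-cluster rich in adipocyte markers, denervated EC-like nuclei held 826 CPM.

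Angptl8 (chr9:21835510-21837347, plus strand) encodes a secreted, feeding-induced protein of the angiopoietin-like family that takes part in the control of lipoprotein lipase. BA-like nuclei held 188 CPM in the untreated library, 34.1 in the sham library and 105 in the denervated library. EC-like nuclei held 14.8, 1.14 and 27.2 CPM, and WA-like nuclei 83.3, 25.7 and 19.5 CPM. BA-like nuclei were the highest class of these in each library. The ratio of EC-like over BA-like nuclei was -3.67 (-4.09 to -3.28) on the log2 scale in the untreated library, which left EC-like nuclei at 7.85% of the BA-like level, within the range of the adipocyte markers. At 400 UMIs per nucleus, 7.02%, 1.12% and 3.32% of BA-like nuclei had a UMI, against 0.630% of untreated EC-like nuclei. The gene lies wholly inside Dock6 on the opposite strand, and whether the counting used strand is not given in the sources used here. Dock6 itself was spread the other way, with 80.7 CPM in untreated BA-like, 389 in EC-like and 1232 in PC-like nuclei. The 300 bases around its start from RefSeq (250 before and 50 after, GRCm38.p6) are shown because this gene moved in BA-like nuclei between all 3 libraries; they hold no match to the 3 motifs searched on both strands, AGGTCA (nuclear receptor motif, in 16.3% of 32851 mouse promoters of this length), CACGTG (E-box, in 7.15%) and CCAAT (in 37.4%).
Angptl8, chr9:21835260-21835559, plus strand: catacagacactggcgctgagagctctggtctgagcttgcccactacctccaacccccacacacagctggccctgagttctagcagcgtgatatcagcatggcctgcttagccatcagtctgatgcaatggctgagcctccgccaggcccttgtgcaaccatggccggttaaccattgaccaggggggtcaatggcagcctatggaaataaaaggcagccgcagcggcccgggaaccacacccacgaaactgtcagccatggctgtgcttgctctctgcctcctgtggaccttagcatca

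Cd36 (chr5:17781690-17888801, minus strand) encodes the fatty acid translocase, a membrane protein of both capillary endothelium and adipocytes. EC-like nuclei held 5306 CPM in the untreated, 4418 in the sham and 2992 in the denervated library. BA-like nuclei held 1175, 951 and 1127 CPM, and PC-like nuclei 828, 1180 and 702 CPM. EC-like nuclei were the highest class in every library. The log2 ratio of EC-like over BA-like nuclei was 2.18 (2.14 to 2.21), 2.22 (2.17 to 2.26) and 1.41 (1.35 to 1.47). The level in untreated BA-like nuclei was 22.1% of that in EC-like nuclei, above each of the 13 endothelial markers compared. The stand-in for free RNA held more Cd36 than BA-like nuclei, with 1398 CPM untreated, 2228 sham and 1794 denervated. Subtraction of that profile left BA-like nuclei with 1117, 754 and 1081 CPM. The source of Cd36 in BA-like nuclei was not tested.

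Slc27a1 and Slc27a2 encode FATP1 and FATP2, proteins of fatty acid transport that also have acyl-CoA synthetase activity. Slc27a1 (chr8:71568882-71587302, plus strand) reached 160 CPM in untreated, 571 in sham and 206 in denervated BA-like nuclei. In EC-like nuclei it stood at 23.4, 42.5 and 72.5 CPM. The highest class in each library was the WA-like one, with 505, 1388 and 449 CPM. Slc27a2 (chr2:126552407-126588243, plus strand) reached 26.4 CPM in untreated, 127 in sham and 26.4 in denervated BA-like nuclei. EC-like nuclei held 2.69, 5.42 and 7.55 CPM and WA-like nuclei 0, 28.9 and 2.44 CPM, so BA-like nuclei were highest in each library. The log2 ratio of EC-like over BA-like nuclei in the untreated library was -2.77 (-3.10 to -2.46) for Slc27a1 and -3.30 (-4.38 to -2.39) for Slc27a2, which rests on 10 UMIs in EC-like nuclei. A RefSeq start of Slc27a2, which lies inside the gene interval given above, is shown because the gene had the largest positive ratio between libraries in BA-like nuclei. Capitals mark its 1 match to the nuclear receptor motif, here as TGACCT on the printed strand.
Slc27a2, chr2:126552774-126553073, plus strand: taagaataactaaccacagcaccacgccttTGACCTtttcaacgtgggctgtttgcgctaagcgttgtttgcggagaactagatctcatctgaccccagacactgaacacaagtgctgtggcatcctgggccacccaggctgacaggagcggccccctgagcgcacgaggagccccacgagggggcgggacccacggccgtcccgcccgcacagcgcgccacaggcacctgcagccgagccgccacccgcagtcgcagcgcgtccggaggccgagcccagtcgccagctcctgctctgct

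Fabp4 and Fabp5 encode small proteins that carry fatty acids inside the cell. Fabp4 (chr3:10204088-10208576, minus strand), known as the adipocyte form and also present in capillary endothelium, stood at 3650 CPM in untreated, 5030 in sham and 2420 in denervated EC-like nuclei. BA-like nuclei held 1102, 2392 and 1283 CPM, and WA-like nuclei 2005, 5181 and 1821 CPM. EC-like nuclei were highest in the untreated and denervated libraries and level with WA-like nuclei in the sham library. The log2 ratio of EC-like over BA-like nuclei was 1.73 (1.69 to 1.77), 1.07 (1.04 to 1.11) and 0.92 (0.85 to 0.98). Fabp5 (chr3:10012548-10016607, plus strand) stood at 156 CPM in untreated, 129 in sham and 104 in denervated EC-like nuclei. BA-like nuclei held 23.6, 32.2 and 24.2 CPM, below EC-like nuclei in each library. The log2 ratio of EC-like over BA-like nuclei was 2.73 (2.49 to 2.97), 2.01 (1.74 to 2.28) and 2.11 (1.74 to 2.47). Without the sub-cluster rich in adipocyte markers, denervated EC-like nuclei held 161 CPM of Fabp5. Both lie above the endothelial markers in the share kept by untreated BA-like nuclei, 30.2% of the EC-like level for Fabp4 and 15.1% for Fabp5.

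Acsl1 and Acsl5 encode long-chain acyl-CoA synthetases, of which ACSL1 is the main form of adipocytes. Acsl1 (chr8:46471037-46536051, plus strand) reached 757 CPM in untreated, 1518 in sham and 717 in denervated BA-like nuclei. WA-like nuclei were above them in each library, with 1701, 3107 and 1535 CPM, and EC-like nuclei below, with 93.6, 155 and 227 CPM. Acsl5 (chr19:55251938-55297720, plus strand) reached 509 CPM in untreated, 98.8 in sham and 468 in denervated BA-like nuclei. WA-like nuclei held 53.9, 31.3 and 64.7 CPM and EC-like nuclei 93.6, 46.2 and 143 CPM, both below BA-like nuclei. The log2 ratio of EC-like over BA-like nuclei in the untreated library was -3.02 (-3.18 to -2.86) for Acsl1 and -2.44 (-2.61 to -2.29) for Acsl5. Part of Acsl5 overlaps Zdhhc6 on the opposite strand, and the start of Slc27a2 overlaps Gm26697 likewise. A RefSeq start of Acsl5, which lies inside the gene interval given above, is shown because Acsl5 was low in the library in which Slc27a2 was high. The stretch has 1 CCAAT match, in capitals, and no nuclear receptor motif.
Acsl5, chr19:55253119-55253418, plus strand: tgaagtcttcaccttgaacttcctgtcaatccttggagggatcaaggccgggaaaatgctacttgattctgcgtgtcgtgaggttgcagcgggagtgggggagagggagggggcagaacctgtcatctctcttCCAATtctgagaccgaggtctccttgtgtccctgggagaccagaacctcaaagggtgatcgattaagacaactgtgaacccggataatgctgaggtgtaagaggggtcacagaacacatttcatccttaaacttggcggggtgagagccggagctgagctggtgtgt

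White and brown adipocyte-like nuclei held different amounts of Slc27a1, Acsl1 and Acsl5. In all 3 libraries Slc27a1 and Acsl1 were at least 2-fold higher in WA-like nuclei and Acsl5 at least 2-fold lower. Slc27a1 had log2 ratios of 1.66 (1.36 to 1.95), 1.28 (1.19 to 1.37) and 1.13 (0.95 to 1.30) in the untreated, sham and denervated libraries. Acsl1 had ratios of 1.17 (1.01 to 1.32), 1.03 (0.98 to 1.09) and 1.10 (1.0 to 1.19). Acsl5 had ratios of -3.24 (-4.24 to -2.40), -1.66 (-2.17 to -1.19) and -2.85 (-3.28 to -2.46), so that its level in untreated BA-like nuclei was 9.45-fold that in WA-like nuclei. These signs held under every alternative. Slc27a2 was lower in WA-like nuclei of the sham (-2.14, -2.67 to -1.65) and denervated (-3.43, -6.50 to -1.55) libraries; in the untreated library it had 0 UMIs there, and 3 UMIs, the floor used for a count of 0, would be 14.7 CPM, so it was at least 1.80-fold lower. Lpl differed little, at -0.09 (-0.25 to 0.08), -0.08 (-0.14 to -0.02) and -0.15 (-0.24 to -0.06), and Cd36 stayed under 2-fold, at 0.08, 0.58 and -0.10.

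In the untreated library 3 of the 10 genes (Fabp5, on 11 UMIs, with Slc27a1 and Acsl1) were at least 2-fold higher in WA-like nuclei, beside 11.4% of 7855 genes, and 2 (Angptl8 and Acsl5) at least 2-fold lower, beside 21.0%. The sham library had 3 higher and 2 lower (8.87% and 15.5%) and the denervated library 2 higher and 3 lower (11.6% and 21.9%). Fabp4 was higher in WA-like nuclei by 0.86, 1.12 and 0.51 on the log2 scale. The 7 white adipocyte markers summed to 3221, 3306 and 3471 CPM in WA-like and to 510, 433 and 574 CPM in BA-like nuclei. WA-like nuclei also kept brown adipocyte markers. The 11 of these that were found summed to 3098, 4843 and 2213 CPM in WA-like and to 5538, 7576 and 6871 CPM in BA-like nuclei. Slc7a10, the serine and alanine transporter that marks white adipocytes, was among the leading genes of the WA-like cluster in each library. The 8 stress genes were also higher there, with 8319, 19908 and 9018 CPM, and their part in these differences was not tested.

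**Figure D3:**
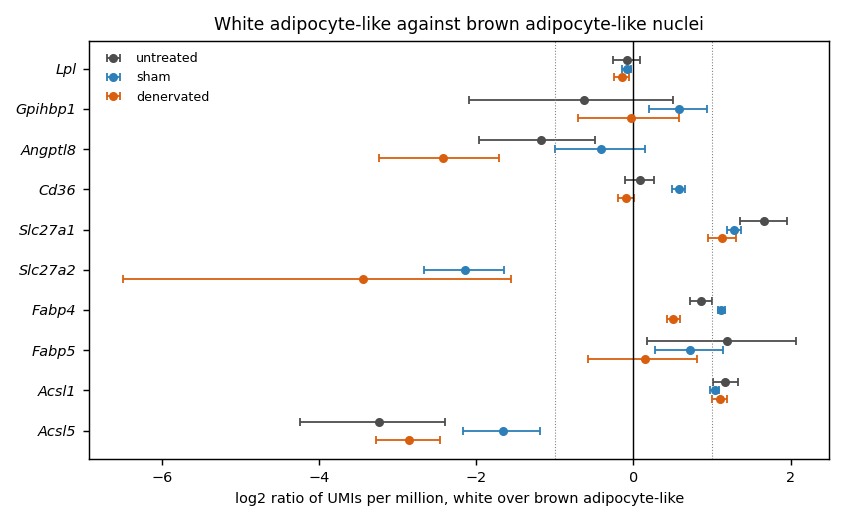
Log2 ratio of CPM, white adipocyte-like over brown adipocyte-like nuclei (horizontal axis), for the 10 genes in 3 libraries, with exact 95% intervals for counting error and dotted lines at a 2-fold difference; the untreated Slc27a2 value, with 0 UMIs in white adipocyte-like nuclei, is not drawn. Slc27a1 and Acsl1 lie above 1 and Acsl5 below -1.5 in all 3 libraries, and Lpl lies near 0.

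Within the endothelium, the lipase and its anchor were higher in capillary-like than in arterial-like nuclei. Untreated capillary-like, arterial-like and venous-like nuclei (4343, 274 and 102 nuclei) held 1311, 579 and 621 CPM of Lpl and 795, 316 and 538 CPM of Gpihbp1. In the sham library (4167, 233 and 164 nuclei) the values were 1195, 451 and 759 CPM for Lpl and 826, 412 and 577 CPM for Gpihbp1. The capillary-like level was the highest of the 3 in both libraries for both genes. For Lpl, the arterial-like and venous-like levels lay below the free RNA stand-in, 801 CPM untreated and 1023 CPM sham. Sham arterial-like Gpihbp1 also lay below its stand-in, 505 CPM. Subtraction of that profile left 1438, 285 and 393 CPM of Lpl in untreated capillary-like, arterial-like and venous-like nuclei. In the sham library it left 897, 0 and 0 CPM and took 60.1%, 78.7% and 82.9% of UMIs. Over arterial-like nuclei, Lpl was higher by 1.18 (0.92 to 1.45) and 1.41 (1.03 to 1.81) on the log2 scale, and Gpihbp1 by 1.33 (0.98 to 1.71) and 1.0 (0.61 to 1.43). With sub-types taken from each nucleus's own markers both fell below 2-fold, Lpl to 0.39 and 0.25 and Gpihbp1 to 0.74 and 0.75. Adipocyte markers were at about the same level in both sub-types, 10.6% of BA-like in untreated capillary-like and 10.1% in arterial-like nuclei. The 8 stress genes summed to 4522 CPM in untreated capillary-like, 2035 in arterial-like and 2059 in venous-like nuclei, and to 7594, 7715 and 9181 CPM in the sham library. Without a sub-cluster of 579 nuclei led by Fos and Fosb, untreated capillary-like nuclei held 2590 CPM of the stress genes, 1308 CPM of Lpl and 769 CPM of Gpihbp1. Cd36 and Fabp4 differed less, by 0.51 (0.41 to 0.62) and 0.52 (0.39 to 0.64) in the untreated library.

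Of the 9 genes that passed the filter in the untreated library, 4 (Lpl, Gpihbp1, Fabp5 and Acsl1) were at least 2-fold higher in capillary-like than in arterial-like nuclei, beside 8.76% of 7693 genes, and none was as much lower (8.57%). In the sham library 2 of 8 were higher (11.2%) and none lower (12.4%). Against venous-like nuclei, Lpl and Acsl1 were at least 2-fold higher in the untreated library, with Acsl1 resting on 4 venous-like UMIs (12.3% higher and 13.9% lower over all genes), and none in the sham library (12.7% and 13.7%). With sub-types from own markers, the arterial counts were 1 and 0, and at a clustering resolution of 1 they were 2 and 1. Fabp5 was highest in venous-like nuclei, 279 CPM (184 to 406) against 158 CPM (144 to 173) in capillary-like nuclei of the untreated library. The denervated library gave no capillary-like cluster, and its venous-like cluster was led in part by the cycling genes Mki67 and Top2a. Its endothelial-like sub-clusters of 1796 and 597 nuclei had Ppara or haemoglobin genes among their leading genes. The naming rule gave such clusters no sub-type before capillary markers were scored.

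**Figure D4:**
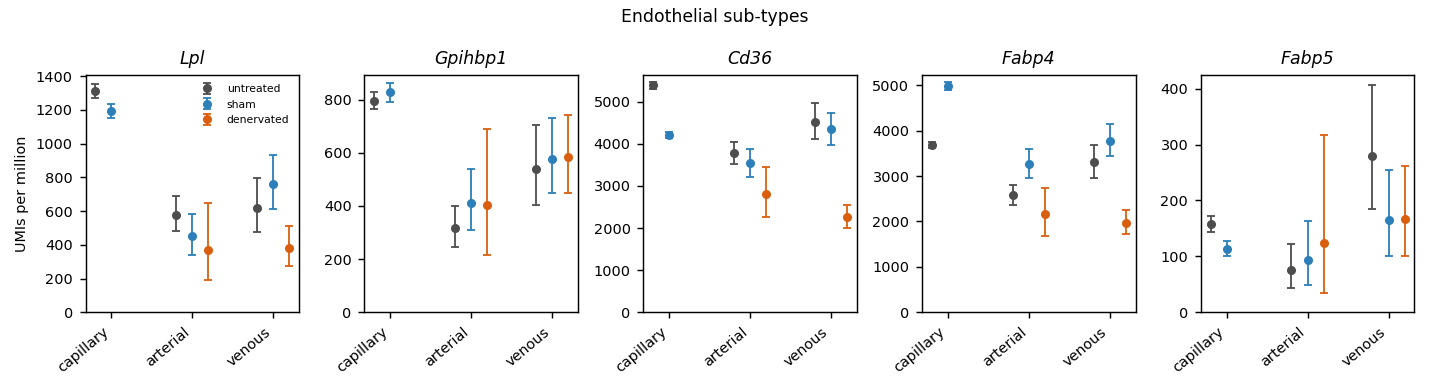
Level of 5 genes (vertical axis, CPM, from 0) in capillary-like, arterial-like and venous-like nuclei of each library, with exact 95% Poisson intervals for counting error; no capillary-like cluster was named in the denervated library. Lpl and Gpihbp1 are highest in capillary-like nuclei of the untreated and sham libraries.

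The comparison the labels set up is that of denervated BAT with untreated and with sham-operated BAT; the 3 ratios between these libraries share libraries and are not independent. In BA-like nuclei, denervated over untreated, 9 of the 10 genes stayed within 1.5-fold. Angptl8 was the exception, at 105 CPM (95.9 to 114) against 188 CPM (179 to 198), a log2 ratio of -0.85 (-0.99 to -0.70), where 4.75% of genes were at least 1.5-fold lower and 6.73% higher. Its ratio ran from -1.02 to -0.72 over 12 alternatives. Slc27a1 stood at 0.36 (0.25 to 0.48), Fabp4 at 0.22 (0.17 to 0.26), Gpihbp1 at -0.55 (-0.82 to -0.27) at a low level, and the other 6 genes between -0.12 and 0.04. The 10 adipocyte markers had a median ratio of 0.11, with a range of -0.34 to 0.64, and Dock6 stood at 80.7 CPM untreated and 99.4 CPM denervated.

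Against the sham library, the same nuclei gave a different picture. Acsl5 was higher in the denervated library by 2.24 (2.10 to 2.39) and Angptl8 by 1.62 (1.36 to 1.88) on the log2 scale. Lower were Slc27a2 by -2.27 (-2.55 to -1.99), Slc27a1 by -1.47 (-1.58 to -1.37), Acsl1 by -1.08 (-1.14 to -1.02), Fabp4 by -0.90 (-0.94 to -0.85), Lpl by -0.83 (-0.87 to -0.79) and Gpihbp1 by -0.59 (-0.89 to -0.29). That is 2 of 10 at least 1.5-fold higher, beside 19.5% of 7910 genes, and 6 lower, beside 20.1%. Dock6 moved in the same direction as Angptl8 in this comparison, from 45.4 to 99.4 CPM.

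The sham library differed from the untreated one in much the same genes, which the shared sham library alone can give. Slc27a2 was 4.81-fold higher (2.27, 2.04 to 2.50), Slc27a1 3.57-fold (1.84, 1.74 to 1.93), Fabp4 2.17-fold (1.12, 1.08 to 1.16), Acsl1 2.01-fold (1.0, 0.96 to 1.05) and Lpl 1.65-fold (0.72, 0.69 to 0.76). Angptl8 was 5.53-fold lower (-2.47, -2.71 to -2.23) and Acsl5 5.15-fold lower (-2.37, -2.51 to -2.23). These are 5 of 10 higher and 2 lower, beside the 18.1% and 17.5% given above, and the members' median was 0.59 against -0.02 over all genes. Cd36 (-0.30), Fabp5 (0.45) and Gpihbp1 (0.04) were within 1.5-fold. Dock6, which spans Angptl8 on the opposite strand, was also lower in sham than in untreated BA-like nuclei, the same direction as Angptl8.

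The 8 stress genes were higher too in sham BA-like nuclei, with a median log2 ratio of 1.34 over untreated and a range of 0.26 to 3.64. A sub-cluster led by these genes held 388 untreated, 652 sham and 0 denervated BA-like nuclei. Without it, the untreated and sham libraries stood at 26.7 and 138 CPM for Slc27a2, 158 and 524 for Slc27a1, 731 and 1279 for Acsl1, 192 and 37.1 for Angptl8 and 520 and 110 for Acsl5, so these differences kept their direction without the nuclei led by stress genes. The summed stress genes still differed there, at 1225 CPM untreated and 1715 CPM sham. The signs of all 7 held over 12 alternatives. The operation, its time and any difference in handling between these libraries cannot be told apart. The same 5 genes were higher and the same 2 lower in WA-like nuclei of the sham library, where Gpihbp1 was higher too (23.0% higher and 23.6% lower over all genes), but these rest on 140 untreated nuclei, with a ratio of -0.78 (-1.78 to 0.33) for Acsl5 and 0 UMIs of Slc27a2. Denervated over untreated, WA-like nuclei were lower in Angptl8 (-2.09) and Fabp5 (-1.01) and higher in none of the 9 genes that passed the filter (19.8% and 21.3%). Denervated over sham, Acsl5 (1.05) was higher and 7 genes were lower (22.7% and 23.9%), the largest being Slc27a2 with -3.57 and Slc27a1 with -1.63.

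**Figure D5:**
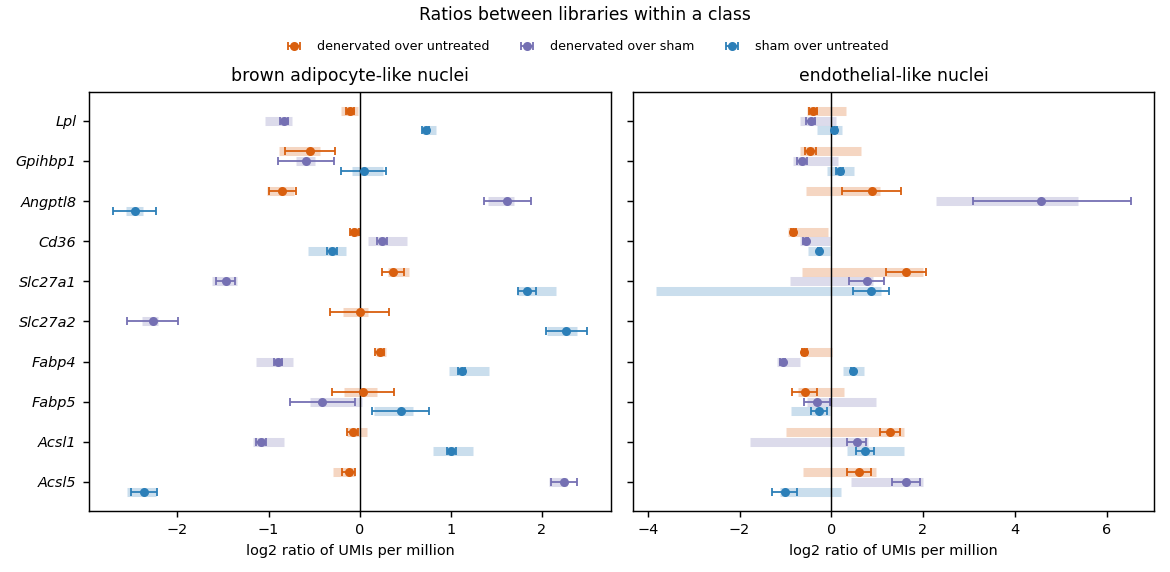
Log2 ratio of CPM between libraries (horizontal axis) for the 10 genes in brown adipocyte-like (left) and endothelial-like (right) nuclei, where they passed the filter on low counts; bars on points are exact 95% intervals for counting error and pale bands give the range over the alternatives. In brown adipocyte-like nuclei the sham library is high for Slc27a2, Slc27a1, Fabp4, Acsl1 and Lpl and low for Angptl8 and Acsl5 against both others, and in endothelial-like nuclei the bands are wide and many cross 0.

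The ratios between libraries were less stable in EC-like nuclei, which were mostly capillary-like in the untreated and sham libraries but lay mostly in the sub-cluster rich in adipocyte markers in the denervated one. Denervated over untreated, Cd36 was lower by -0.83 (-0.88 to -0.78) and Fabp4 by -0.59 (-0.65 to -0.54), beside 8.30% of 7966 genes at least 1.5-fold lower. With at most 10% mitochondrial UMIs per nucleus Cd36 came to -0.068 and Fabp4 to 0.0094; mitochondrial UMIs took 9.59% in untreated and 4.72% in denervated EC-like nuclei. Slc27a1 (1.63, 1.20 to 2.07), Acsl1 (1.28, 1.05 to 1.51), Angptl8 (0.88, 0.23 to 1.51) and Acsl5 (0.61, 0.35 to 0.87) were higher, beside 21.5%. Gpihbp1 stood at 575 against 787 CPM, within 1.5-fold. The stricter mitochondrial limit turned Slc27a1 to -0.64, past 1.5-fold the other way, Angptl8 to -0.54 and Acsl5 to -0.22. With that limit 2 of the 10 genes were past 1.5-fold as higher and 1 as lower. In the same nuclei the 10 adipocyte markers were higher by a median of 2.05 (range 0.72 to 2.68) and the 14 endothelial markers lower by a median of -0.52 (range -1.13 to -0.24). None of the 10 genes passed 1.5-fold when all libraries were clustered together or when nuclei were classed by their own markers, and with a minimum of 500 genes per nucleus none of these 6 calls held and Acsl1 turned to -0.99. In denervated EC-like nuclei with no adipocyte marker UMI, Cd36 stood at 3436 CPM against 5179 CPM in such untreated nuclei, Slc27a1 at 35.9 against 22.9 CPM, Acsl1 at 110 against 89.9 CPM, Angptl8 at 16.0 against 13.1 CPM and Acsl5 at 63.8 against 98.1 CPM. Without the sub-cluster rich in adipocyte markers, 2 of the 10 genes passed 1.5-fold, Slc27a1 (1.03) and Cd36 (-0.59). Acsl1 then stood at 88.1 against 93.6 CPM, Angptl8 at 15.1 against 14.8 CPM, Acsl5 at 85.6 against 93.6 CPM and Gpihbp1 at 826 against 787 CPM.

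Sham over untreated, EC-like nuclei were higher in Slc27a1 (0.86, 0.47 to 1.26) and Acsl1 (0.73, 0.53 to 0.93) and lower in Acsl5 (-1.02, -1.29 to -0.74), beside 9.40% and 11.5% of 7589 genes. The stress genes summed to 4333 CPM in untreated and 7313 CPM in sham EC-like nuclei (median ratio 0.47), and mitochondrial UMIs took 9.59% and 13.04%; their part in these differences was not tested. Without the untreated sub-cluster led by Fos and Fosb, which left 2753 CPM of stress genes there, the untreated levels were 23.2 CPM for Slc27a1, 92.5 for Acsl1 and 94.6 for Acsl5, against 42.5, 155 and 46.2 CPM in the sham library. Subtraction of free RNA turned Slc27a1 to -3.81, with 23.5 CPM left untreated and 1.67 sham, and Acsl5 to 0.21. Lpl (0.06), Gpihbp1 (0.18), Cd36 (-0.26), Fabp4 (0.46) and Fabp5 (-0.27) stayed within 1.5-fold, and the endothelial markers had a median of -0.07. Denervated over sham, Angptl8 (4.57, on 4 sham UMIs), Acsl5 (1.63) and Slc27a1 (0.77) were higher, beside 25.6% of 8170 genes, and Fabp4 (-1.06) and Gpihbp1 (-0.64) lower, beside 13.4%. The adipocyte markers in these nuclei were higher by a median of 2.31. Without the sub-cluster rich in them, 2 of the 5 genes were still past 1.5-fold, Acsl5 (0.89) and Fabp4 (-0.69). Slc27a1 then stood at 0.17 and Gpihbp1 at -0.12. Angptl8, at 15.1 CPM denervated and 1.14 CPM sham, did not pass the filter on low counts there. Acsl1 was past 1.5-fold as lower, at 88.1 CPM denervated against 155 CPM sham, whereas its ratio with the sub-cluster was 0.55. Slc27a1 changed sign in 6 of 11 alternatives and was past 1.5-fold as lower in 2 of them, at -0.59 with at least 500 genes per nucleus and -0.90 with at most 10% mitochondrial UMIs.

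In the untreated library PC-like nuclei held less Lpl, Gpihbp1, Cd36, Fabp4 and Fabp5 than EC-like nuclei, each by at least 2-fold (5 of 8 genes that passed the filter, beside 14.4% of 8514 genes, and none higher than in EC-like nuclei, beside 20.2%), and less Lpl, Angptl8, Slc27a1, Slc27a2, Acsl1 and Acsl5 than BA-like nuclei (6 of 10, beside 20.2% of 8793, and none higher, beside 22.6%). The same 6 stood lower than in BA-like nuclei of the sham (20.1%, and 24.6% the other way) and denervated (18.5% and 20.3%) libraries. Against EC-like nuclei, 4 genes were lower in the sham library, the list without Lpl (12.2%, and 19.1% the other way), and 6 in the denervated library, the list with Angptl8 (15.9% and 13.7%). That last call rests on 27.2 CPM of Angptl8 in EC-like nuclei, which was 15.1 CPM without the sub-cluster rich in adipocyte markers, against 10.5 CPM on 4 UMIs in PC-like nuclei. Adipocyte markers stood in PC-like nuclei at 11.8%, 10.6% and 25.7% of their BA-like level, and the 11 pericyte markers had a median ratio of -0.40 for denervated over untreated and -0.82 for denervated over sham; their part in these values was not tested. Their Fabp4 was 647 CPM in the untreated, 1964 in the sham and 994 in the denervated library. Sham PC-like nuclei were thus highest, with a ratio over untreated of 1.60 (1.44 to 1.76). This class also holds a smooth muscle-led cluster in the sham library. Mitochondrial UMIs took 3.68% of untreated, 5.45% of sham and 2.06% of denervated PC-like UMIs, and their part in this was not tested. The free RNA stand-in held 1398, 2721 and 1710 CPM of Fabp4 in the same order, above PC-like nuclei in each library. Its subtraction took 29.1%, 44.2% and 32.7% of PC-like UMIs and left 296, 979 and 617 CPM of Fabp4. The part of free RNA in the Fabp4 ratio was not tested either. Slc27a1 in PC-like nuclei rested on 11 untreated UMIs. Sham over untreated, 2 of 7 genes, Slc27a1 (1.70) and Fabp4, were higher and Acsl5 (-1.57) lower (14.5% and 11.6%). Denervated over untreated, Slc27a1 (1.77) and Fabp4 (0.62) were higher and none lower (15.2% and 18.0%), and denervated over sham, Acsl5 (1.97) was higher and Lpl (-1.04), Cd36 (-0.75) and Fabp4 (-0.98) lower (18.5% and 23.1%). Immune-like nuclei of the untreated library lay between EC-like and BA-like nuclei in Acsl1 (301 CPM) and Acsl5 (190 CPM), at 39.8% and 37.3% of the BA-like level, and the adipocyte markers stood there at 27.6% (13.5% to 49.4% for single markers). They held 935 CPM of Cd36 and 63.4 CPM of Gpihbp1 in the untreated and 2305 and 317 CPM in the sham library, and the sham immune-like nuclei also held endothelial markers at 44.9% of the EC-like level, against 3.92% in the untreated library.

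A wider list of 38 genes of lipoprotein handling and fatty acid transport had 36 members listed in the tables. Of the 25 that passed the filter in the untreated library, 9 were at least 2-fold higher in EC-like than in BA-like nuclei and 9 at least 2-fold lower, beside 21.8% and 26.4% of all genes. The largest on the endothelial side were the caveolar genes Cavin1 (log2 ratio 3.38) and Cavin2 (3.08) and the heparan sulphate proteoglycan gene Hspg2 (3.0), the caveolae being the membrane pits in which endothelial cells are rich. Among the largest on the adipocyte side were the lipoprotein receptor gene Vldlr (-4.22) and the sorting receptor gene Sort1 (-3.18). In BA-like nuclei, denervated over untreated, 3 of 24 were at least 1.5-fold higher, Lrp1 (0.95), Apoe (0.69) and Scarb1 (0.63), and none lower, beside 6.73% and 4.75% of all genes. Sham over untreated, 8 of 24 were higher and 6 lower, beside 18.1% and 17.5%. The lipase inhibitor gene Angptl4 stood at 49.6 CPM untreated and 329 CPM sham (2.73, 2.57 to 2.89) and the receptor genes Lrp1 and Vldlr were higher by 2.79 and 1.08, while the synthetase gene Acsl3 was lower by -2.43 and Cavin2 by -1.25. Angptl4 and Angptl8 thus lay on opposite sides in these nuclei.

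The genes whose level followed each member most closely over 14 sums of a class in a library, by Pearson's r of log2(CPM + 10) among 8201 genes, are given as a description; the sums of 1 library share its depth and free RNA. Gpihbp1 was followed by the endothelial genes Adgrg1, Cdh5 and Btnl9 (r of 0.99 each). Cd36 was followed by Sox7, Klhl4 and Rtp3 (0.97, 0.96 and 0.96), and Fabp5 by Cd36, Btg3 and Mfng (0.94, 0.93 and 0.93). Angptl8 was followed by Pdhb, Acat2 and Acly (0.98, 0.97 and 0.97), of which Acly makes cytosolic acetyl-CoA. Acsl5 was followed by Ergic1 and the glycolytic genes Pgk1 and Aldoa (0.94, 0.93 and 0.93). Slc27a1 was followed by Tmem120a, Adhfe1 and Car3 (0.96, 0.95 and 0.95), and Acsl1 by Lgals12, Ankef1 and Adhfe1 (0.99, 0.98 and 0.98). Lpl (Tor1aip1, Plgrkt and Fam120c, 0.91, 0.91 and 0.88) and Fabp4 (Pxdn, Rnf125 and Nos3, 0.83 each) had no gene as close. By Spearman's rho, 6 of these 27 genes stayed among the closest 3.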

How the data were processed

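The deposited tables hold UMI counts per nucleus and gene. The authors captured nuclei on the BD Rhapsody whole-transcriptome platform; per the file headers, the counts of the untreated and denervated libraries come from the vendor's pipeline, version 1.9-nuclei, with GRCm38 and GENCODE vM19 (a label names GRCh38); the sham counts came without such a header. The submitters' processing notes also name Seurat 4.0.6. The ambient RNA removal described for the study was not repeated.

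Barcodes needed 200 detected genes or more and no more than 50% of UMIs from mitochondrial genes. Those holding at least 3 UMIs of each of a pair of exclusive marker lists, the smaller at least 25% of the larger, were removed as doublets (7.33% to 12.3%). Counts were scaled to 10000 per nucleus and log-transformed, and each library was clustered alone on 2000 variable genes, without the 10 genes, the wider list and mitochondrial genes (30 components, 20 neighbours, Louvain resolution 0.5). Clusters were named from marker lists with at least 3 detected markers, and adipocyte-like and endothelial-like nuclei were re-clustered. UMIs were summed per class; a ratio needed at least 20 CPM in either sum and 20 UMIs together, with 2-fold as the limit between classes and 1.5-fold between libraries. Intervals are exact (Poisson, binomial, conditional binomial, 95%). Scripts were tested on simulated data. Library totals were 14971579, 14725864 and 9420030 UMIs.

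All 10 genes are named, and of the wider list at most the 6 with the largest differences past the limit in a comparison (1 gene is not reported here); the 3 closest genes are given for members with at least 50 CPM in an untreated class. Members and lists were chosen with earlier results of these data known. Alternatives covered the filters, doublets, resolution, joint clustering, naming by each nucleus's own markers, ambient subtraction, scaling, thinning and the limits. Promoters are RefSeq sequences of GRCm38.p6, found for 6 of the 10 genes; Lpl, Gpihbp1, Fabp4 and Fabp5 were not matched. Gene positions are from GENCODE vM21. Computation ran in Python 3.11.15, with clustering by scikit-learn 1.9.0 and python-igraph 0.11.9, statistics by scipy 1.17.1, tables by pandas 2.3.3 on numpy 2.4.6, and plots by matplotlib 3.10.9.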

Additional observations from a re-analysis of the deposited data

Results flagged for a closer look

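Some genes had ratios of opposite sign in EC-like and BA-like nuclei between the same libraries. With 1 library per condition these differences were not tested, and the share of adipocyte marker RNA in EC-like nuclei moved with them (7.76% to 35.3% of the BA-like level). Denervated over untreated, Angptl8 stood at 0.88 in EC-like and -0.85 in BA-like nuclei on the log2 scale, a difference of 1.73. The difference was 1.36 for Acsl1 (1.28 and -0.08), 0.73 for Acsl5 (0.61 and -0.12) and -0.81 for Fabp4 (-0.59 and 0.22). Denervated over sham, it was 2.24 for Slc27a1 (0.77 and -1.47), 1.63 for Acsl1 (0.55 and -1.08) and -0.81 for Cd36 (-0.56 and 0.24). Sham over untreated, it was -0.72 for Fabp5 (-0.27 and 0.45). The sign in EC-like nuclei was not stable for most of these: it changed in 4 of 12 alternatives for Angptl8, 2 for Acsl1, 6 for Acsl5 and 1 for Fabp4 denervated over untreated. Denervated over sham, where fewer alternatives applied, it changed in 6 for Slc27a1, 7 for Acsl1 (down to -1.78) and 0 for Cd36. For Fabp5 sham over untreated it changed in 0 of 12.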

How the results depend on the processing

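No paired analysis was possible because each condition has 1 library, and none could be left out. Of the single ratios of the 10 genes recomputed, 501 between classes, 94 between endothelial sub-types and 614 between libraries stayed within their counting interval, and 153, 21 and 231 moved further with the same sign or below the limit. No value past its limit changed sign between classes or sub-types, and 23 did between libraries, all in EC-like nuclei.

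Counts of genes past the limit moved as follows. A 1.5-fold limit gave 8 for WA-like over BA-like nuclei of the untreated library (5 at 2-fold). Capillary-like against arterial-like nuclei gave 2 in the untreated (4) and 1 in the sham library (2) at resolution 1, 1 and 0 by each nucleus's own markers, and 5 in the sham library after ambient subtraction. Capillary-like against venous-like nuclei gave 0 in the untreated library (2) at resolution 1 and 3 in the sham library (0) after ambient subtraction. Denervated over untreated, BA-like nuclei gave 2 with at least 500 genes or with the mean CPM per nucleus and 0 at 2-fold (1). EC-like nuclei gave 1 with at least 500 genes, 3 with at most 10% mitochondrial UMIs, 1 at resolution 1, 0 with joint clustering, 0 by own markers, 3 with mean CPM, 2 at 2-fold, 3 without nuclei holding adipocyte marker UMIs and 2 without the sub-cluster rich in adipocyte markers (6). PC-like nuclei gave 4 with at least 500 genes (all higher), 4 by own markers (1 higher and 3 lower, with Acsl1 at -1.26 and Acsl5 at -1.21), 4 after ambient subtraction (3 higher and 1 lower) and 1 with doublets kept or at 2-fold (2). Denervated over sham, BA-like nuclei gave 5 at 2-fold (8), EC-like nuclei 3 at resolution 1, with mean CPM, at 2-fold or without the sub-cluster rich in adipocyte markers and 2 with joint clustering, by own markers or without nuclei holding adipocyte marker UMIs (5), and PC-like nuclei 7 with doublets kept and 2 at 2-fold (4). Sham over untreated, EC-like nuclei gave 1 at 2-fold (3) and PC-like nuclei 6 with doublets kept and 5 with joint clustering or mean CPM (3). Thinning to 800 UMIs gave 4 genes whose share of denervated nuclei with a UMI differed at least 2-fold between EC-like and BA-like nuclei, against 7 at 400. By Spearman's rho, 6 of the 27 closest genes remained.

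In EC-like nuclei, denervated over untreated, Angptl8 became -0.12 with at least 500 genes, -0.54 with at most 10% mitochondrial UMIs, -0.30 at resolution 1 and -0.11 with joint clustering. Acsl5 became -0.22 with at most 10% mitochondrial UMIs, -0.076 at resolution 1, -0.24 with joint clustering, -0.045 by own markers, -0.62 without nuclei holding adipocyte marker UMIs and -0.13 without the sub-cluster rich in adipocyte markers, where Acsl1 became -0.086. With at most 10% mitochondrial UMIs Slc27a1 became -0.64 and Fabp4 0.0094, and with at least 500 genes Acsl1 became -0.99. Denervated over sham, Slc27a1 became -0.59 with at least 500 genes, -0.90 with at most 10% mitochondrial UMIs, -0.056 at resolution 1, -0.51 with joint clustering, -0.43 by own markers and -0.099 without nuclei holding adipocyte marker UMIs, and Gpihbp1 became 0.15 with at most 10% mitochondrial UMIs. Sham over untreated, ambient subtraction made Slc27a1 -3.81 and Acsl5 0.21; it took 63.5% of the UMIs of sham EC-like nuclei and gave no value for denervated ones. The cause of these changes was not tested. The settings without stress-led nuclei (adipocyte-like or endothelial-like), without the sub-cluster rich in adipocyte markers and without nuclei holding the other class's marker UMIs were chosen after seeing the data. Depth limits Slc27a2 and Angptl8 outside BA-like nuclei, where some sums rest on under 10 UMIs.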

Other observations

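Fibroblast-like nuclei were few, 31, 50 and 73 in the untreated, sham and denervated libraries. They held 1606, 2346 and 648 CPM of Lpl, with the sham library highest. Schwann-like nuclei, 28, 135 and 44 in number, held 210 CPM of Lpl in the untreated library. Whether the untreated fibroblast-like value comes from these nuclei or from free RNA was not tested.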
